A study of Papio hamadryas with 17 samples.

Results

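The genes described here are 10 genes of the distal convoluted tubule and of its WNK kinase pathway: SLC12A3, TRPM6, CALB1, PVALB, EGF, WNK1, WNK4, STK39, OXSR1 and KLHL3. They were chosen by symbol, and every transcript filed under one of these symbols was taken. They had 28 transcripts among the 26644 of the female table, and 7 of the 10 genes were among the 10006 genes found in both tables, with 23 transcripts. WNK1, OXSR1 and PVALB had rows in the female table alone and were not analysed in the males. RNA had been sequenced from ultrasound-guided biopsies of the kidney cortex of untreated baboons, with ages of 15 to 19 for the 8 females and 6 to 13 for the 9 males, in a unit the labels leave out. All animals had lived on a low-salt chow, so no group on another diet stands beside them, and no transgene or other genetic change is recorded. Each library came from a separate animal.

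The distal convoluted tubule is the short stretch of nephron after the macula densa, where the thiazide-sensitive cotransporter NCC, encoded by SLC12A3, takes up sodium and chloride. The kinases WNK1 and WNK4 phosphorylate SPAK (STK39) and OSR1 (OXSR1), which in turn phosphorylate and activate NCC, and the KLHL3-CUL3 ubiquitin ligase marks the WNK kinases for degradation. The same cells take up magnesium through TRPM6 and calcium with the help of calbindin (CALB1), while EGF is made by the distal nephron and mutations of SLC12A3, WNK1, WNK4 or KLHL3 cause inherited disorders of salt balance and blood pressure.

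Values are given as signal, the deposited normalised value less its offset of 1, summed over a gene's transcripts. Signals were not divided by transcript length, so levels are compared between libraries and not between genes. Of the 17 libraries, 3 (female 1, female 2 and male 6) were rich in skeletal muscle RNA: ACTA1, the skeletal muscle actin, had a signal of 51850, 81747 and 35238 there and at most 9.53 in the other 14. UMOD, which defines the thick ascending limb, stood at 20.8 and 12.3 in these females and at 939 in male 6, against at least 1669 elsewhere. These 3 libraries are therefore described singly, and all levels and tests below use the other 14, 6 females and 8 males, whose summed signal ran from 255529 to 433540. Sex, age and library name series coincided, since the females formed 1 series and the males 2 others, so that these 3 cannot be told apart.

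SLC12A3 varied more between animals than almost any other gene. In the 6 females its signal was 2.54 in the lowest library (female 3), 48.3 at the median and 247 in the highest (female 7). In the 8 males it was 59.1 in the lowest (male 1), 187 at the median and 498 in the highest (male 4). Of the 6 females 3 (females 3, 4 and 6, at 2.54, 20.5 and 36.0) lay below every male, while female 7 lay above 6 of the 8 males. The highest female was 97.3 times the lowest and the highest male 8.42 times the lowest. The standard deviation of log2(signal + 1) over the 14 libraries was 1.85, larger than that of 99.7% of the genes tested, whose median was 0.476. In bulk tissue, fewer cells of a type and less RNA per cell cannot be told apart.

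The other transport and binding genes of the segment were less variable. TRPM6, the magnesium channel of the apical membrane, was near the lower limit of the measurement in females 3 and 4 (0.388 and 0.933), with a female median of 1.86 and a highest value of 8.44 in female 7. Its signal in the males ran from 1.75 to 6.32 with a median of 3.62, inside the range of the females. CALB1, the calcium-binding protein calbindin-D28k of distal tubule and connecting tubule, was 45.8 in the lowest female (female 6), 146 at the median and 257 in the highest. In the males CALB1 was 196 in the lowest, 279 at the median and 571 in the highest, so that 4 of the 6 females lay below every male. PVALB, parvalbumin, a marker of the early part of this segment and also a protein of fast muscle, was measured in females alone and ran from 7.95 (female 6) to 40.7 (female 3). Female 3 thus had the highest PVALB of the 6 and the lowest SLC12A3. EGF, a growth factor precursor made by thick ascending limb and distal convoluted tubule, ran from 54.3 to 241 in the females and from 48.3 to 164 in the males, and was highest in female 3.

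The kinases and their regulator were steadier than the cotransporter. WNK1 was 16.4 in the lowest female, 26.2 at the median and 43.7 in the highest, and its lowest and highest libraries, female 3 and female 7, were also those of SLC12A3. WNK4 was 86.4, 124 and 212 (lowest, median, highest) in the females and 97.5, 122 and 185 in the males. STK39 was 7.00, 15.0 and 22.2 in the females and 10.2, 14.3 and 17.5 in the males. For WNK4 and STK39 the ranges of the sexes overlapped, and 29.7% and 29.8% of the tested genes had a smaller standard deviation. OXSR1 was the steadiest member, with all 6 females between 9.84 and 11.3. KLHL3, the substrate adaptor of the ligase that removes WNK kinases, was 13.3 and 14.6 in females 3 and 4 and 31.3 to 46.0 in the other 4 females. In the males KLHL3 ran from 11.8 to 40.2, with a median of 21.7.

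**Figure D1:**
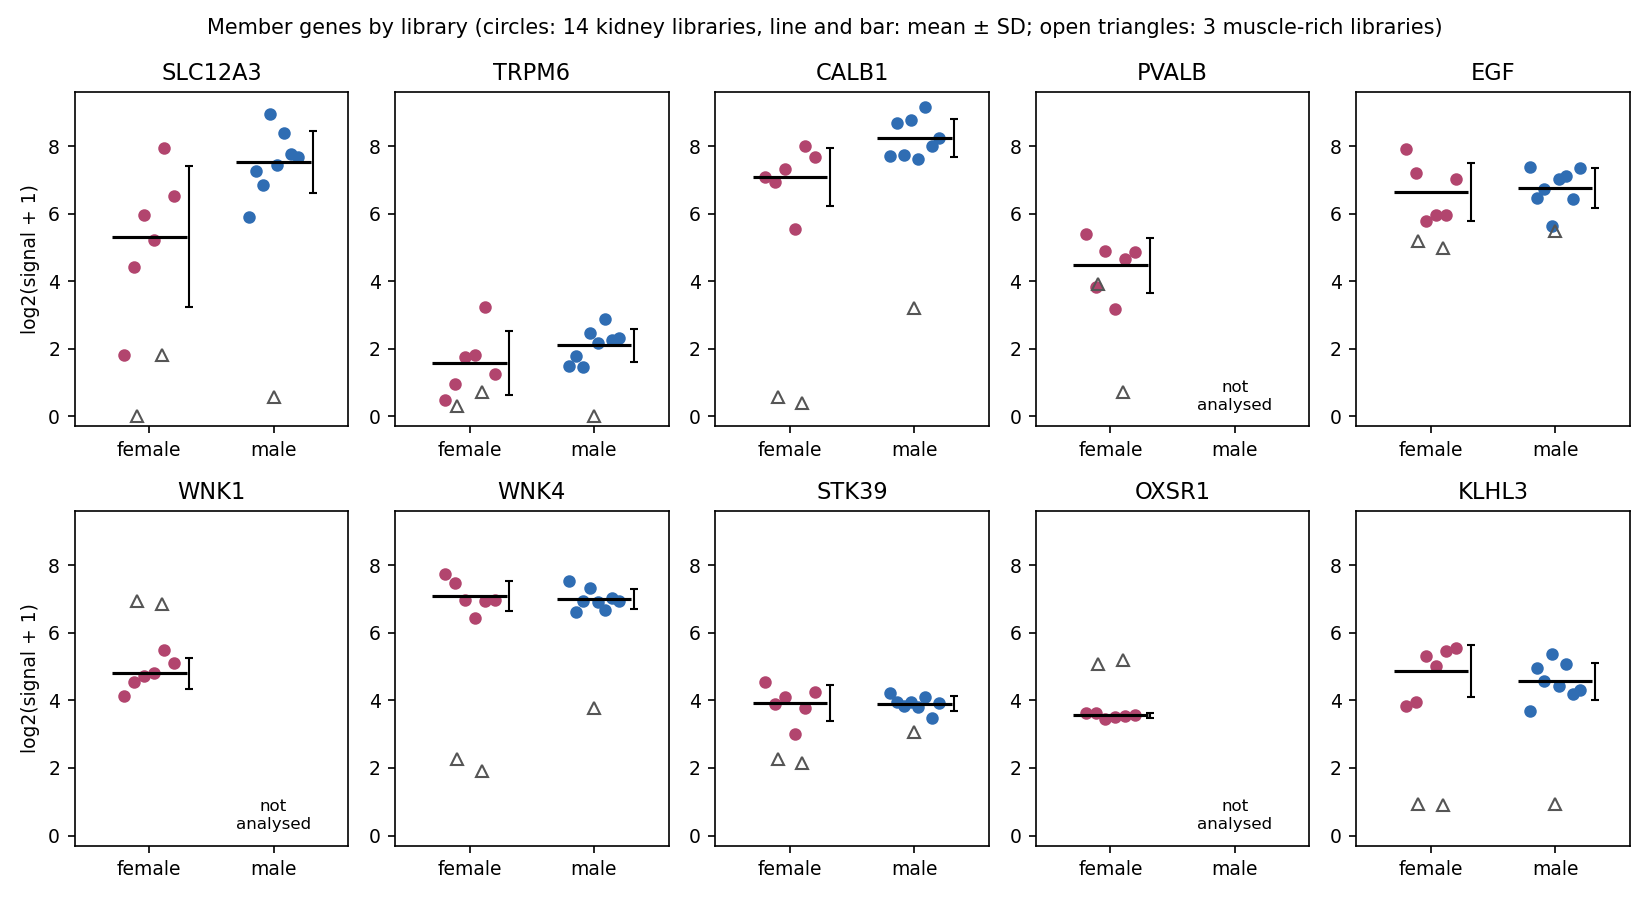
Each panel plots log2(signal + 1) of a member gene by sex; circles are the 14 kidney libraries with their mean and SD, and open triangles the 3 muscle-rich libraries. The females spread widely for SLC12A3 (2.54 to 247 in signal) and hardly for OXSR1 (9.84 to 11.3), and the triangles lie above the circles for WNK1 and OXSR1 alone.

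The study asked how the kidney cortex differs between the sexes. SLC12A3 and CALB1 were lower in the females than in the males, and the other 5 members found in both tables did not pass the test. SLC12A3 had a mean signal of 76.3 ± 89.3 in the 6 females and of 219 ± 139 in the 8 males (SD). Its log2 difference, female minus male, was -2.22 with an SE of 0.71 (limma over all genes, Benjamini-Hochberg adjusted p = 0.0216). The means of CALB1 were 153 ± 72.2 and 322 ± 135 (SD), a log2 difference of -1.14 with an SE of 0.34 (limma, adjusted p = 0.0145). Higher in males were thus 2 of 7 members, where 35.5% of all 9708 genes tested were called higher in males and 2.20% higher in females, 37.7% in either direction. The share of members called was therefore not above that of all genes. Of the 7 members 0 separated the sexes without overlap, whereas every male lay above every female for 11.6% of genes and every female above every male for 0.299%.

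The remaining members showed small differences relative to their error. TRPM6 differed by -0.52 (SE 0.35, limma adjusted p = 0.261), with the highest single value of all 14 libraries in a female. Without female 7 the TRPM6 difference was -0.85 and passed the test (limma adjusted p = 0.0266). The kinase genes lay near 0, WNK4 at 0.09 (SE 0.20, adjusted p = 0.744) and STK39 at 0.01 (SE 0.20, adjusted p = 0.962). KLHL3 differed by 0.29 (SE 0.31, adjusted p = 0.486) and EGF by -0.12 (SE 0.34, adjusted p = 0.809). The median difference of all genes was itself -0.35, so a gene at 0 lay above the middle gene.

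When each library was scaled to the same median, neither SLC12A3 (-1.82, adjusted p = 0.0753) nor CALB1 (-0.74, adjusted p = 0.10) passed, and WNK4 did, higher in females (0.49, SE 0.17, limma adjusted p = 0.0408). EGF then turned to 0.28 (adjusted p = 0.523). After that scaling 14.6% of genes were called higher in males and 14.7% higher in females, 29.3% in either direction, beside 0 and 1 of the 7 members. With the females set against each male series alone, SLC12A3 differed by -1.97 against series A (5 males, adjusted p = 0.127). Against series B it differed by -2.63 (3 males, adjusted p = 0.0727). CALB1 differed by -1.0 against series A (adjusted p = 0.0851) and by -1.38 against series B (adjusted p = 0.0458). With age as a covariate the differences were 0.22 for SLC12A3 (SE 2.04) and 0.14 for CALB1 (SE 0.97), neither called, and 1 gene of all tested was. Between the 2 male series no gene was called (0 of 9756, 700 with an unadjusted limma p under 0.05), and SLC12A3 differed by -0.65 (SE 0.52, adjusted p = 0.719).

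**Figure D2:**
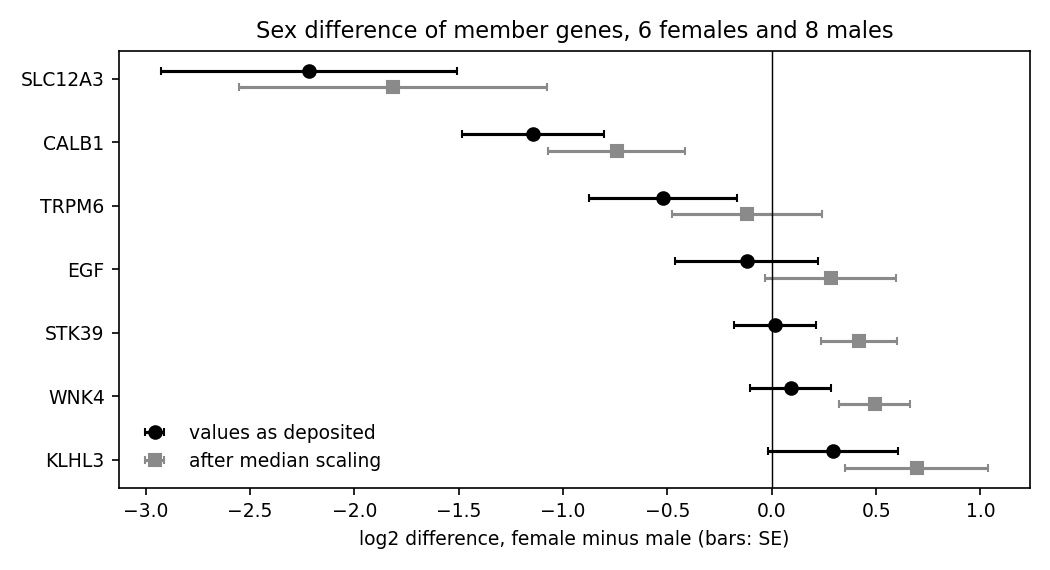
Points give the log2 difference, female minus male, of the 7 members found in both tables, and bars the SE, from values as deposited (black) and after scaling each library to the same median (grey). SLC12A3 (-2.22 and -1.82) and CALB1 (-1.14 and -0.74) lie farthest below 0, and scaling moves every member upward.

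Markers of the proximal tubule moved with the sex difference. Their mean log2(signal + 1) ran from 2.43 (female 3) to 6.88 in the females and from 6.81 to 8.28 in the males, and 12 of 12 were called higher in males. Their summed signal was 210 to 2904 in the females and 2835 to 6595 in the males. Thick ascending limb markers, the segment just upstream, ran from 4.95 to 7.04 and from 5.68 to 6.97, with 1 of 9 tested markers called higher in males and 0 higher in females. The part of the proximal tubule content in the sex differences of SLC12A3 and CALB1 was not tested.

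Among single transcripts, 1 of WNK4 was higher in females and another lower, while its gene sum did not pass. The 6 WNK4 transcripts lie on the plus strand of the sequence named NC_018167.2 in the deposited tables, whose genome build is not given in the sources used here. Of these, 5 start at 49666600 and transcript variant X7 (XM_017950772.2) starts 3321 bases downstream, at 49669921. All 6 end at 49682623 or 49682624. Variant X7 had a signal of 38.0 to 73.9 in the 6 females, with values of 73.9, 64.6, 48.8, 59.2, 40.5 and 38.0 in females 3 to 8. In the 8 males it was 18.4 to 36.8, so every female lay above every male, which held for 0.276% of the 15968 transcripts tested. The log2 difference was 0.95 with an SE of 0.19 (limma over all transcripts, adjusted p = 0.00222), and it was 1.30 after median scaling (adjusted p = 0.00156). It stood at 0.79 against series A (adjusted p = 0.0255) and 1.23 against series B (adjusted p = 0.0119), and at 0.39 with age as a covariate (adjusted p = 0.959). Of the 23 member transcripts, X7 alone was called higher in females and 4 were called higher in males, where 1.93% and 25.0% of all transcripts were, 26.9% in either direction. After median scaling 2 were called higher in females and 1 in males, where 7.41% of all transcripts were called higher in females and 17.9% in either direction. As deposited, the 4 were WNK4 variant X3 (-1.16, SE 0.30, adjusted p = 0.0105), CALB1 variant X1, and SLC12A3 variants X2 and X4. The call of WNK4 variant X3 was lost after median scaling (-0.81, adjusted p = 0.0649), against series A (-1.20, adjusted p = 0.0567) and against series B (-1.08, adjusted p = 0.0705).

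As a share of WNK4 signal, variant X7 held 40.5% ± 14.1 in the 6 females and 21.8% ± 6.97 in the 8 males (SD). The difference of 18.7 percentage points had an exact two-sided permutation p of 0.00233, or 0.0293 after Benjamini-Hochberg adjustment over the 22 transcript shares compared. Of the upstream-start variants, X6 took 12.3 points less in females (30.9% ± 9.08 against 43.3% ± 6.13, exact p = 0.00533, adjusted p = 0.0293). Variant X3 took 2.04% ± 1.40 in females and 5.43% ± 1.55 in males (exact p = 0.00300, adjusted p = 0.0293). The share of X7 in females 3 to 8 was 34.8%, 36.6%, 39.1%, 68.6%, 33.0% and 30.6%. In the males it was 15.6% to 22.9% in 7 libraries and 37.8% in male 2. Without female 6 the difference was 13.0 points (exact p = 0.00777) and without male 2 it was 20.9 points (exact p = 0.000583).

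The share of X7 moved with a property of the whole library. Of the genes in both tables, 513 had a transcript that starts at least 1000 bases downstream, ends within 100 bases of the others, and a signal of at least 10 in every library. The mean share of such downstream-start transcripts was 50.3% to 58.0% in the females and 46.0% to 51.9% in the males. It was highest in female 6 among the females and in male 2 among the males, the libraries with the highest X7 share in each sex. Across the 14 libraries the WNK4 share followed that mean with a Pearson r of 0.95 (permutation p = 2e-05) and a Spearman rho of 0.88 (permutation p = 0.0001). It was 0.91 without the 2 farthest libraries (female 6 and male 7), 0.94 within females and 0.86 within males. The median female minus male difference over the 513 genes was 2.94 points, and 51 of them (9.94%) differed by at least as much as WNK4 in its direction, against 7 in the other. The part of this library property in the WNK4 difference was not tested.

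**Figure D3:**
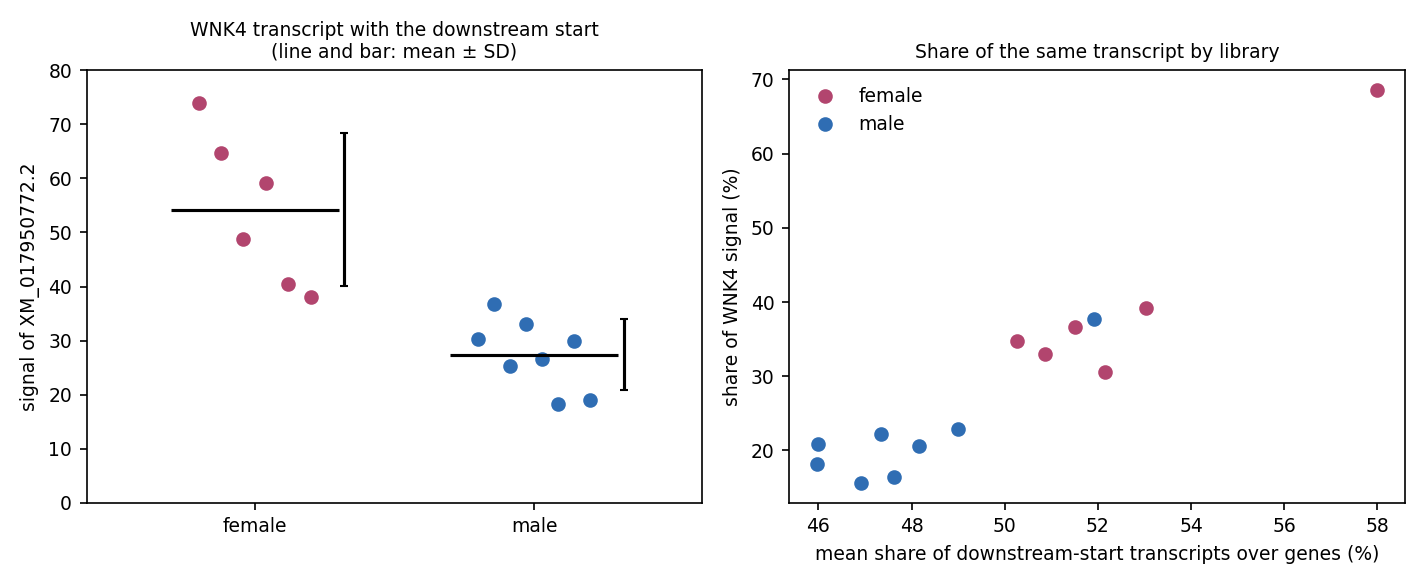
The left panel plots the signal of WNK4 variant X7 by sex with mean and SD, and the right panel its share of WNK4 signal against the mean share of downstream-start transcripts over 513 genes, by library. Every female lies above every male on the left, and on the right the libraries lie along a rising line (r = 0.95) with female 6 at its upper end.

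SLC12A3 had a transcript share that differed as well. Variant X8 (XR_002519247.1), a noncoding form that ends inside the gene, held 6.45% ± 2.70 of SLC12A3 signal in females and 3.37% ± 0.82 in males (exact permutation p = 0.00400, adjusted p = 0.0293). The lowest and highest shares were 3.75% and 10.8% for females, 2.08% and 4.85% for males, so the sexes overlapped. The difference was 3.08 percentage points, in the sex with less SLC12A3 signal. The signal of X8 itself differed by -0.89, female minus male (SE 0.40, limma adjusted p = 0.108). It was 0.150 in female 3 and 2.23 in female 4, so the shares there rest on low values. Transcript variants of 1 gene share most of their sequence, so the authors' assignment of reads to each is uncertain.

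SLC12A3 rose and fell across animals together with TRPM6, CALB1 and, in the females, WNK1. With TRPM6 the Pearson r of log2(signal + 1) was 0.85 over 14 libraries (permutation p = 7e-05, adjusted p = 0.00063 over 9 members, two-sided) and the Spearman rho 0.88 (permutation p = 9e-05, adjusted p = 0.000765). With CALB1 r was 0.69 (permutation p = 0.00907, adjusted p = 0.0272) and rho 0.86 (permutation p = 0.00017, adjusted p = 0.000765). With WNK1, over the 6 females, r was 0.97 (exact permutation p = 0.00556, adjusted p = 0.025) and rho 0.94 (exact permutation p = 0.0167, adjusted p = 0.05). Of all 9707 other genes, 12% had an r with SLC12A3 of at least 0.65 over the 14 libraries. No such share was computed over the 6 females.

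These relations differed in how far they held under other views of the same libraries. Without females 3 and 4, the farthest from the median of SLC12A3, r was 0.72 for TRPM6 and 0.83 for CALB1. For TRPM6 it was 0.85 within females and 0.87 within males. For CALB1 it was 0.41 within females and 0.71 within males, and with each sex centred on its mean it was 0.49 and did not pass (permutation p = 0.0767, adjusted p = 0.092). By rank the centred relation of CALB1 passed (rho 0.67, permutation p = 0.0116, adjusted p = 0.0231). Its rho of 0.77 within females and 0.69 within males did not pass the exact permutation test (adjusted p = 0.206 and 0.208). WNK1 had an r of 0.85 over the 4 females left without females 3 and 7, too few for a test.

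For KLHL3 the Pearson r with SLC12A3 was higher within each sex than in the pooled libraries, a difference that was not tested. Pooled, r was 0.50 (permutation p = 0.0663, adjusted p = 0.114) and rho 0.46 (permutation p = 0.0977, adjusted p = 0.220), and without females 3 and 4 the pooled r was 0.15. Within females r was 0.89 (exact permutation p = 0.00417, adjusted p = 0.025) and within males 0.78 (exact permutation p = 0.0221, adjusted p = 0.0664). By rank neither passed after adjustment, with a rho of 0.94 within females (exact permutation p = 0.0167, adjusted p = 0.10) and 0.55 within males (exact permutation p = 0.171, adjusted p = 0.342). With each sex centred on its mean r was 0.83 (permutation p = 3e-05, adjusted p = 0.00018) and rho 0.84 (permutation p = 0.00025, adjusted p = 0.0015).

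The other kinases and EGF did not rise with the cotransporter. For WNK4 r was -0.50 (permutation p = 0.0707, adjusted p = 0.114), for EGF -0.49 (permutation p = 0.0763, adjusted p = 0.114) and for STK39 -0.27 (permutation p = 0.334, adjusted p = 0.376). Over the 6 females r was -0.51 for OXSR1 (exact permutation p = 0.292, adjusted p = 0.375) and -0.14 for PVALB (exact permutation p = 0.789, adjusted p = 0.789). For PVALB it was 0.74 over the 4 females left without females 3 and 7, too few for a test. With the level of the proximal tubule markers regressed out of both genes, the r of PVALB was 0.92 (permutation p = 0.0111, adjusted p = 0.05). That was not under the threshold of 0.05, and the rho was 0.71 (permutation p = 0.136, adjusted p = 0.204). Residuals of 6 libraries were permuted, so these p-values are approximate. Pooled without females 3 and 4, r was 0.15 for WNK4 and -0.04 for EGF. Within females it was -0.66 and -0.75, and within males -0.27 and -0.59. None of these passed the exact permutation test within a sex (adjusted p = 0.194 and 0.128, then 0.607 and 0.188). With each sex centred on its mean EGF had an r of -0.69 and passed (permutation p = 0.00551, adjusted p = 0.011). After median scaling both passed, EGF at -0.74 (permutation p = 0.00228, adjusted p = 0.00833) and WNK4 at -0.70 (permutation p = 0.00458, adjusted p = 0.0103).

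**Figure D4:**
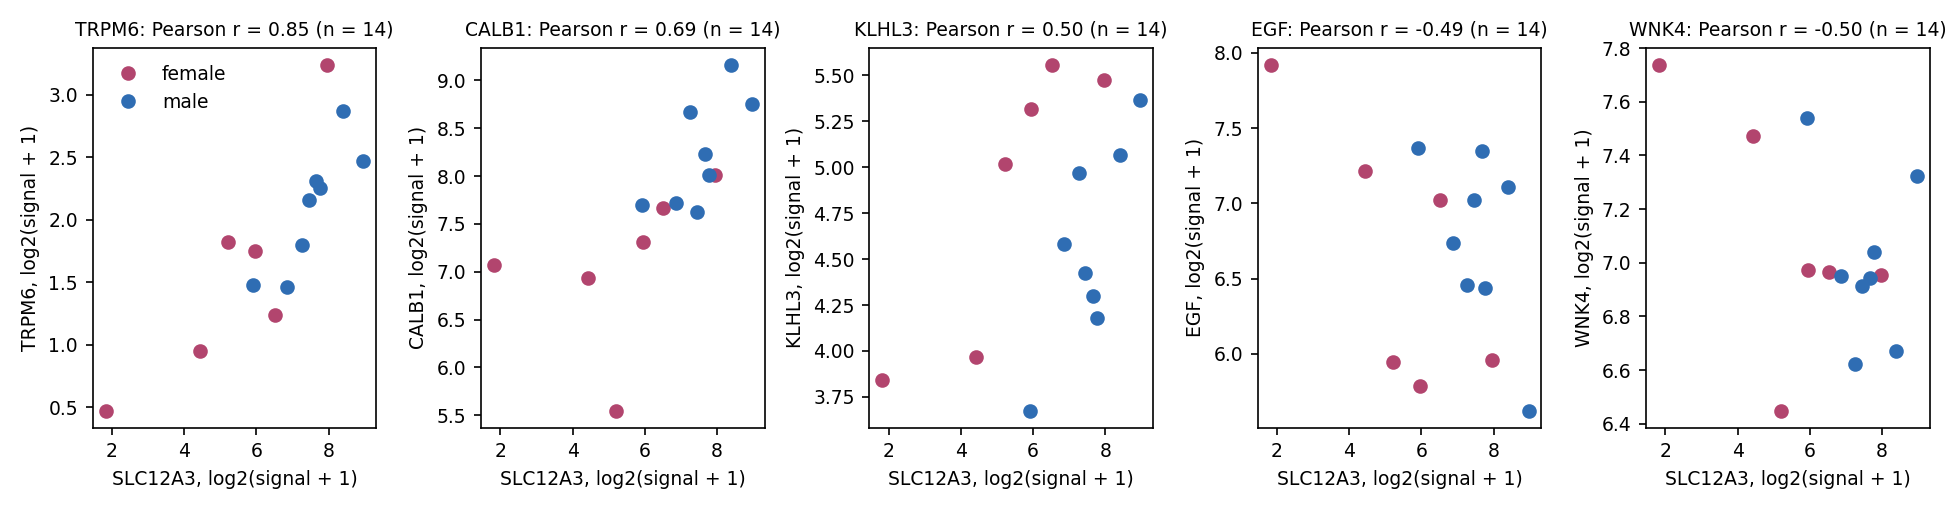
Each panel plots a member gene against SLC12A3, both as log2(signal + 1), with 1 point per library and sex by colour. TRPM6 (r = 0.85) and CALB1 (r = 0.69) rise with SLC12A3, and KLHL3 rises within each sex (0.89 in females, 0.78 in males). Without the 2 females at the left the pooled r is -0.04 for EGF and 0.15 for WNK4, while within males it is -0.59 and -0.27.

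By Pearson r, SLC12A3 and TRPM6 followed the level of the proximal tubule across animals. SLC12A3 did so with an r of 0.93 (permutation p = 7e-05, adjusted p = 0.0007 over 20 pairs; rho 0.88, permutation p = 0.0001, adjusted p = 0.001) and TRPM6 with an r of 0.77 (permutation p = 0.00101, adjusted p = 0.00673; rho 0.79, permutation p = 0.0012, adjusted p = 0.006). For SLC12A3 r was 0.77 without the 2 farthest libraries (females 3 and 4), 0.91 within females and 0.89 within males. For TRPM6 these values were 0.53, 0.83 and 0.85, and 0 of the 3 passed (permutation p = 0.0745, 0.0625 and 0.00848, adjusted p = 0.209, 0.109 and 0.053). By rank TRPM6 passed within females (rho 1, exact permutation p = 0.00278, adjusted p = 0.0389) and within males (rho 0.93, exact permutation p = 0.00223, adjusted p = 0.0156). Without the 2 farthest libraries its rho of 0.67 did not pass (permutation p = 0.0195, adjusted p = 0.0545). CALB1 followed the same level by rank, with a rho of 0.83 (permutation p = 0.0004, adjusted p = 0.00267), while its r of 0.58 did not pass (permutation p = 0.0381, adjusted p = 0.0952). Without females 3 and 4 its rho was 0.78 (permutation p = 0.00393, adjusted p = 0.0183). With each sex centred on its mean the r of CALB1 was 0.15. With the proximal tubule level regressed out of both genes, the r of SLC12A3 with KLHL3 was 0.74 (permutation p = 0.00296, adjusted p = 0.0266). With TRPM6 it was then 0.57 (adjusted p = 0.0688), with CALB1 0.52 (adjusted p = 0.0922) and with WNK1 0.87 (adjusted p = 0.0688), by the permutation test.

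By Pearson r on the values as deposited, EGF, WNK4 and STK39 followed the thick ascending limb level instead, and KLHL3 went against it. How many of all genes follow either segment level this closely was not computed. For EGF r was 0.89 (permutation p = 3e-05, adjusted p = 0.0006) and rho 0.88 (permutation p = 7e-05, adjusted p = 0.001). EGF had an r of 0.87 without the 2 farthest libraries (females 3 and 6), 0.96 within females, 0.82 within males and 0.84 against UMOD, SLC12A1 and CLDN16 alone. For WNK4 r was 0.68 (permutation p = 0.00673, adjusted p = 0.0269; rho 0.46, permutation p = 0.0996, adjusted p = 0.227) and for STK39 0.65 (permutation p = 0.0106, adjusted p = 0.0353; rho 0.43, permutation p = 0.125, adjusted p = 0.227). Both rested on females 3 and 6, with an r of 0.40 and 0.16 without them and of 0.44 and 0.32 within males. Against UMOD, SLC12A1 and CLDN16 alone WNK4 had an r of 0.50 (adjusted p = 0.173) and STK39 of 0.61 (adjusted p = 0.071), and after median scaling 0.56 (adjusted p = 0.0673) and 0.52 (adjusted p = 0.0947), none of which passed the permutation test. KLHL3 had an r of -0.76 with the thick ascending limb level (permutation p = 0.0017, adjusted p = 0.0085; rho -0.72, permutation p = 0.00494, adjusted p = 0.0198). It stood at -0.79 without those libraries, -0.71 within females and -0.81 within males. Against UMOD, SLC12A1 and CLDN16 alone the r of KLHL3 was -0.67 (permutation p = 0.00803, adjusted p = 0.0402). By rank this did not pass (rho -0.62, permutation p = 0.0211, adjusted p = 0.105). Median scaling brought further pairs under 0.05 by the permutation test. WNK4 (-0.82, adjusted p = 0.000733), STK39 (-0.71, adjusted p = 0.0108) and EGF (-0.69, adjusted p = 0.021) then went against the proximal tubule level. SLC12A3 (-0.69, adjusted p = 0.021) and TRPM6 (-0.82, adjusted p = 0.00165) went against the thick ascending limb level. Sex-centred KLHL3 had an r of 0.69 with the proximal tubule level (permutation p = 0.00188, adjusted p = 0.00526).

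**Figure D5:**
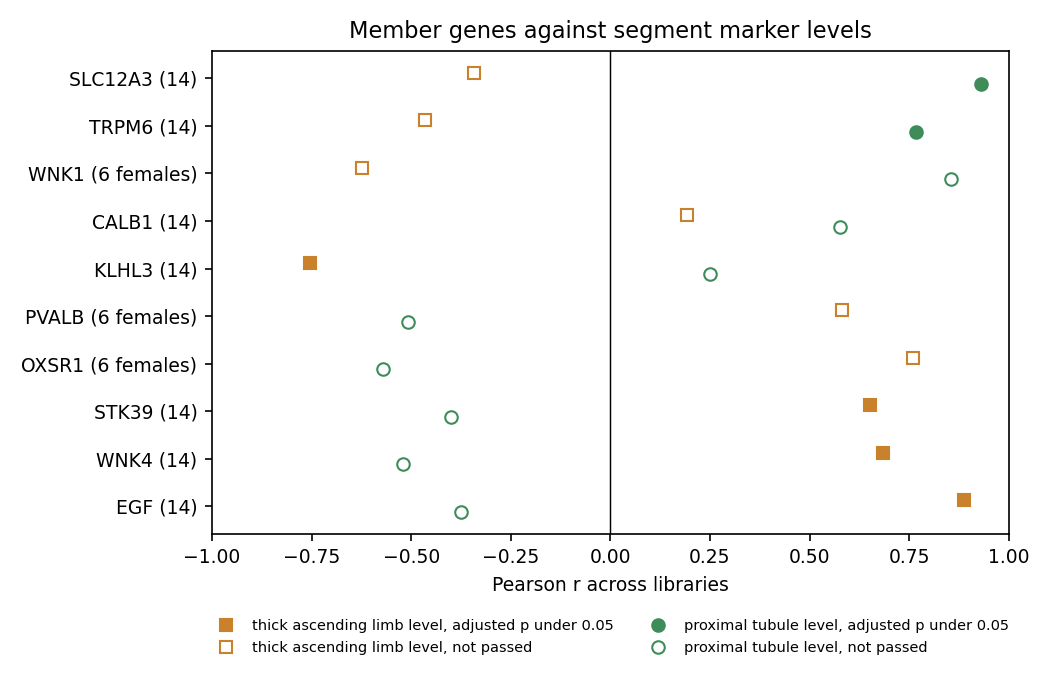
Pearson r of each member with the mean log2(signal + 1) of thick ascending limb markers (squares) and proximal tubule markers (circles) across libraries; filled symbols passed the permutation test at an adjusted p under 0.05. SLC12A3 and TRPM6 lie far right on the proximal tubule level (0.93 and 0.77), EGF on the thick ascending limb level (0.89), and KLHL3 far left on the latter (-0.76).

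The wider pathway was examined in 4 lists of 45 genes, of which 34 could be tested between the sexes. Higher in females were 2 and higher in males 11, with a median log2 difference of -0.48 beside the -0.35 of all genes. Of all genes tested 2.20% were called higher in females and 35.5% in males, so the count of the lists in males was near that of all genes. After median scaling the counts were 5 and 6, beside 14.7% and 14.6% of all genes. Among the 10 tested regulators of the WNK and SPAK kinases, 5 were higher in males and 1 in females, and 4 and 1 after median scaling, beside the same shares of all genes. CUL3, the scaffold of the KLHL3 ligase, had a median signal of 13.7 in females and 29.6 in males. It differed by -1.17 (SE 0.17, limma adjusted p = 0.000142). KLHL2, the close relative of KLHL3 in the same ligase, differed by -1.24 (SE 0.31, adjusted p = 0.00578). CAB39, the MO25 scaffold that activates SPAK and OSR1, differed by -0.81 (SE 0.16, adjusted p = 0.00112). The deubiquitinase USP8 differed by -0.73 (SE 0.12, adjusted p = 0.00029). PPP1R1B, an inhibitor of protein phosphatase 1, was the regulator that was higher in females, by 0.90 (SE 0.17, limma adjusted p = 0.000678). Every male lay above every female for CUL3, CAB39 and USP8, and every female above every male for PPP1R1B. Of all genes this held for 11.6% and 0.299%. After median scaling CUL3 stood at -0.77, CAB39 at -0.40 and USP8 at -0.32, all still called.

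Of 7 basolateral transport partners, 3 were higher in males and 1 in females, and 2 and 1 after median scaling, beside 35.5% and 2.20% of all genes as deposited. KCNJ16, a potassium channel subunit that pairs with KCNJ10 in these cells, differed by -1.36 (SE 0.23, limma adjusted p = 0.000351), and ATP1B1, the beta subunit of the sodium pump, by -0.89 (SE 0.21, adjusted p = 0.00359). After median scaling ATP1B1 stood at -0.49 (adjusted p = 0.0478). KCNJ10 itself differed by -0.19 (SE 0.25, adjusted p = 0.578). Of 9 calcium and magnesium handling genes, 2 were higher in males and 0 in females as deposited, whereas 0 were higher in males and 2 in females after median scaling. TRPM7, the ubiquitous relative of TRPM6, was among them, with a difference of -0.95 as deposited (SE 0.24, adjusted p = 0.00633), and of -0.55 after median scaling, which did not pass (adjusted p = 0.062). Of 8 genes of distal convoluted identity, 1 was higher in males and 0 in females as deposited, and 0 and 1 after median scaling. In both lists the genes called after the scaling were other genes than before it, and no called gene changed sign.

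Across the 14 libraries 8 of the 34 genes correlated positively with SLC12A3 and 2 negatively at an adjusted p under 0.05 over the 34. Of all 9707 other genes, 12% had an r at least as high as the lowest of the 8 (0.65) and 2.58% one at least as low as the weaker of the 2 (-0.68). With the proximal tubule level regressed out of both genes, 3 of the 8 had an r under 0: USP8 at -0.14, KCNJ16 at -0.04 and SLC12A7 at -0.06. TMEM52B then stood at 0.76, SALL3 at 0.76 and SGK1 at 0.53. The highest were TMEM52B (r = 0.93, permutation p = 1e-05, the smallest that the permutations can give) and SALL3 (r = 0.92, permutation p = 1e-05), both from the list of distal convoluted identity. SALL3 signal was only 0 to 3.03 in the females and 0.767 to 5.54 in the males, so its r rests on low values. With TMEM52B r was 0.85 without females 3 and 4, 0.89 within females and 0.97 within males, and with SALL3 it was 0.81, 0.94 and 0.91. From the same list EMX1, a homeobox gene, had an r of 0.89 and LHX1 of 0.73, the latter 0.25 without females 3 and 4. Of the 8 genes in that list 4 passed. The rest did not, with an r between -0.55 and 0.24, and the median of the list was 0.48. SGK1, the aldosterone-induced kinase, had an r of 0.91 (permutation p = 6e-05, adjusted p = 0.00051), and of 0.67 without those females.

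Of all 9707 other genes tested, those whose pattern was most like SLC12A3 were FRZB, SLC5A2, CA12, SLC6A19 and BAIAP2L2, ranked by Pearson r over the 14 libraries with each sex centred on its mean. FRZB had an r of 0.96, SLC5A2 of 0.95, CA12 of 0.94, SLC6A19 of 0.93 and BAIAP2L2 of 0.92. SLC5A2 and SLC6A19 encode the glucose and neutral amino acid transporters of the proximal tubule. SLC5A2 was at 0 in the lowest female and at 21.0 in the highest, against 14.8 to 88.1 in the males. On the same ranking TRPM6 stood at place 82, KLHL3 at 112 and CALB1 at 1039, whereas STK39 stood at 7215, WNK4 at 8766 and EGF at 9428. The median r of all genes was -0.09. The segment makeup of the libraries varied with SLC12A3, as given above, and the ranking is a description with no test.

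In the muscle-rich libraries WNK1 and OXSR1 were above all other females, and the remaining members were below the other libraries of their sex or within their range. WNK1, which is widely expressed, had a signal of 122 in female 1 and 115 in female 2, 2.80 and 2.63 times the highest of the other 6 females. OXSR1, also widely expressed, was 32.7 and 35.3, or 2.88 and 3.11 times the highest other female. WNK1 had 1 transcript in the table (XM_021923229.1), so a kidney-specific and a full-length form could not be told apart.

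The tubule genes were low in the same libraries. SLC12A3 was listed at 0 in female 1, and was 2.52 in female 2, just below the 2.54 of female 3, and 0.484 in male 6. CALB1 was 0.473, 0.316 and 8.22, and WNK4 was 3.79, 2.72 and 12.7, all below the lowest library of the same sex. STK39 was 3.83 and 3.41 in the females, against at least 7.00, and 7.34 in male 6, against at least 10.2. TRPM6 was 0.236 and 0.630 in the females, of which the second lay within the range of the others, and was listed at 0 in male 6. EGF was 35.7, 30.9 and 43.4, against at least 54.3 in the other females and 48.3 in the other males. PVALB, which fast muscle also makes, was 14.2 in female 1, within the range of the other females, and 0.631 in female 2, below it.

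A different transcript led KLHL3 in the muscle-rich females. Variant X10 (XM_017959924.2), whose start lies 140567 bases upstream of the other 3 on the sequence NC_018157.2, had a signal of 7.34 in female 1 and 4.48 in female 2. In the other 6 females it was 0 to 0.943. The other 3 KLHL3 transcripts together were 0.920 and 0.887 in the muscle-rich females and 13.3 to 46.0 in the rest. This variant had no row among those analysed in the males, so KLHL3 levels above are sums of the other 3 transcripts.

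The authors' deposited table assigns each transcript to a co-expression module, named by a colour, separately in each sex. In the females it places 5 of the 6 SLC12A3 transcripts in darkturquoise, together with CALB1 variant X1, and the remaining SLC12A3 transcript in pink. In the males it places all 6 in black, where CALB1 variant X2 is also found. The authors' deposited table puts EGF with both PVALB transcripts, 2 STK39 transcripts and 3 WNK4 transcripts in the female tan module, and EGF with 4 WNK4 transcripts in the male purple module. WNK1, OXSR1 and KLHL3 variant X10, the 3 transcripts that were high in the muscle-rich libraries, are all in the female blue module of the authors' deposited table. Colours of the sexes were assigned separately and do not correspond.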

How the data were processed

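RNA from kidney cortex biopsies was sequenced as stranded mRNA libraries, per the labels' protocols. Per the file headers, the deposited data are a table for each sex holding a normalised signal for every transcript and library beside the colour of its module. Partek was used, per the submitters' processing notes. The aligner is not given in the sources used here, and neither is the build, the scaling or what Partek did. The lowest deposited value was 1, which was subtracted as an offset. Values were not whole reads, so no count test was run and the depth in reads is unknown. The male table held 17119 complete rows and 1 incomplete row, which was left out, and the rest was not analysed here. Transcripts found in both tables were joined by identifier and summed per gene; WNK1, OXSR1 and PVALB used the female table. Each column was matched to its sample by the animal number in the labels.

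Genes reaching a signal of 1 in 6 or more of the 14 libraries were tested with limma 3.58.1 in R 4.3.3 on log2(signal + 1), its prior variance following mean expression, and p-values adjusted over all genes (Benjamini-Hochberg, threshold 0.05). Differences on this scale understate the change of low genes. Correlations used 100000 permutations over 14 libraries, and an exact permutation test over 6 or 8 and for transcript shares, all two-sided (Python 3.11.15, numpy 2.4.6, scipy 1.17.1). With 6 libraries the smallest exact p is 0.00278. Where the proximal tubule level was regressed out, the residuals were permuted, so those p-values are approximate. The limma step was tested on simulated data. The 10 members and all gene lists were chosen with earlier results of these data known. By a written rule the text names all members, at most 8 other pathway genes called between the sexes (by adjusted p), and the 5 genes most like SLC12A3 whose mean reached that of the median gene. KCNJ10, the pathway genes correlated with SLC12A3, the single transcripts and their shares, and the counts over downstream-start transcripts were chosen once values had been seen. Alternatives were other scalings, pseudocounts and filters, age as a covariate, each male series alone, all 17 libraries and leaving out each library. For 1 pathway gene the values are not reported here.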

Additional observations from a re-analysis of the deposited data

Results flagged for a closer look

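In the share of WNK4 signal held by the transcript variant with the downstream start, female 6 stood far from the other females, at 68.6% with the next at 39.1%. Male 2 stood far from the other males in the same share, at 37.8% with the next at 22.9%. These were 2 libraries set apart among 19 sets of values compared by the gap to the nearest library, and chance sets apart about 5% of such sets. Both libraries also had the highest mean share of downstream-start transcripts of their sex, 58.0% and 51.9%.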

How the results depend on the processing

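The sexes, their ages and their library series coincide, the depth in reads is unknown and the male table was held in part, which limit every sex difference above. No paired analysis was possible, because each library came from a separate animal and the groups are the sexes. Shares of WNK1 by transcript were not run, since it has 1 transcript. Over the 6 females, leaving out the 2 farthest libraries left 4, too few for a test.

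The 3658 genes called between the sexes became 1290 with all 17 libraries, 2214 with a minimum signal of 10, 1907 with series A alone and 1 with age as a covariate, and 3105 to 4028 when each library was left out. With age as a covariate SLC12A3 turned to 0.22 and CALB1 to 0.14. With all 17 libraries SLC12A3 (-2.55, limma adjusted p = 0.152) and CALB1 (-2.24, adjusted p = 0.193) were no longer called, and WNK4 turned to -0.80, STK39 to -0.32 and KLHL3 to -0.29, and with series A alone STK39 to -0.030. EGF turned to 0.28 with median and 0.30 with upper quartile scaling. Leaving out each library moved WNK4 between -0.038 and 0.22, STK39 between -0.11 and 0.20 and EGF between -0.38 and 0.051, while SLC12A3 (-2.75 to -1.52) and CALB1 (-1.33 to -0.84) were called in 14 of 14. Between the male series, leaving out a library gave 0 to 3 genes, with STK39 between -0.055 and 0.25 and KLHL3 between -0.10 and 0.36. With male 6 included, SLC12A3 turned to 1.19, CALB1 to 0.94, EGF to 0.052 and TRPM6 to 0.013.

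Of the correlations with SLC12A3, 3 of 9 passed, where 12% of all 9707 other genes had an r of at least 0.65 over 14 libraries. With median scaling 5 passed and OXSR1 turned to 0.30. Within females 1 of 6 passed and within males 1 of 6. Without the 2 farthest libraries WNK4 turned to 0.15 and STK39 to 0.22. With all 17 libraries 6 passed, and WNK4 turned to 0.71, STK39 to 0.58, EGF to 0.33, PVALB to 0.35 and WNK1 to -0.46. With the proximal tubule level regressed out 1 passed, and STK39 turned to 0.31, OXSR1 to 0.022 and PVALB to 0.92.

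Of the 20 correlations with segment levels 6 passed, 10 with median scaling, 12 of 14 with each sex centred, 2 of 10 with UMOD, SLC12A1 and CLDN16 alone, 3 of 14 without the 2 farthest libraries, 0 within females and 1 within males. CALB1 with the thick limb turned to -0.18 with median scaling, -0.0027 with each sex centred, -0.18 without the 2 farthest libraries and -0.59 within males. OXSR1 turned to -0.42 with the thick limb and 0.42 with the proximal tubule under median scaling. Without the 2 farthest libraries the proximal tubule values turned to 0.085 for WNK4, 0.21 for EGF and -0.36 for KLHL3. The causes of these changes were not tested. How many of all genes would pass the same comparisons was not computed, so the counts of members stand without that share.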

Other observations

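TRPM6 was carried by different transcripts in different animals. Variant X7 (XM_009188952.3) held all TRPM6 signal in females 3, 4 and 6, 15.5% in female 5, 73.5% in female 7 and 0.00954% in female 8. In the males its share ran from 0.243% to 70.5%. Means were 64.8% ± 45.7 in the 6 females and 38.1% ± 27.3 in the 8 males (SD), a difference that did not pass the exact permutation test (exact p = 0.193, adjusted p = 0.423). TRPM6 signal was at most 8.44, so these shares rest on low values.

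CALB1 variant X2 held at least 0.0986% (male 1) and at most 18.3% (male 4) of CALB1 signal in males, and at most 12.0% in females. In the muscle-rich male 6 it held 49.2% of a CALB1 signal of 8.22. STK39 was split among 3 transcripts in every kidney library, of which variant X2 held 16.5% ± 6.29 in females and 10.1% ± 5.32 in males (exact permutation p = 0.0629, adjusted p = 0.277).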
